A study of Homo sapiens with 6 samples.

Results

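The 10 genes described here are nuclear genes whose proteins copy, transcribe, protect and translate the mitochondrial genome: POLRMT, TFAM, TFB2M, POLG, TWNK, SSBP1, LRPPRC, SLIRP, FASTKD2 and TUFM. They were chosen by symbol for the role of their proteins, with earlier results of these data known. All 10 were found among the 57500 genes counted in each library. The counts came from mitochondria isolated with a kit from HepG2 cells, a human liver carcinoma line labelled as wild type. Cells were kept for 48 h with the vehicle DMSO alone (0 µM, the controls) or with 10 µM or 100 µM GenX, a short-chain perfluoroalkyl ether acid. Each dose had 2 libraries, 6 in all, all in 1 batch by label, made from total RNA after depletion of ribosomal RNA. Nothing in the labels says that the libraries of a dose came from separate cultures, so the spread between them may be technical.

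Human mitochondrial DNA is a small circle whose messages and structural RNAs are all transcribed by 1 polymerase, POLRMT, with the help of TFAM and TFB2M at the promoters. The same circle is copied by the polymerase POLG behind the helicase TWNK, while SSBP1 coats the single strands that this exposes. LRPPRC and SLIRP form a complex that protects the mitochondrial messages, FASTKD2 binds mitochondrial RNA and serves the assembly of the mitochondrial ribosome, and TUFM is the elongation factor that brings charged transfer RNAs to it. All 10 proteins are made in the cytosol from nuclear messages, so their messages lie outside the organelle, and part of this class is translated at its surface. Promoters of several such genes, TFAM and TFB2M among them, are textbook targets of the activators NRF1 and GABP (also called NRF2).

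The promoters that carried the core motif of either activator are shown because such sites are known to be shared among genes of this pathway. RefSeq windows on GRCh38.p14, from 250 bases before to 50 after the annotated start, were matched for 9 of the 10 genes, TWNK being the other. The NRF1 core was GCGCA, any base, then GCGC, and the GABP core was CCGGAAGT, each searched on both strands. The NRF1 motif was in the windows of 2 of the 9 genes and in 6.98% of 27305 genes, the GABP motif in 3 of the 9 and in 4.95%, and either motif in 4 of the 9 and in 11.2%. POLRMT had both: the NRF1 motif matched 3 times, with overlap and on both strands, from 24 bases before the start, and the GABP motif matched the minus strand 94 bases before it. TFAM had an NRF1 match on the minus strand 63 bases before the start, TUFM a GABP match 8 bases before it, and SSBP1 a GABP match 42 bases after the first of its 3 annotated starts. The windows of TFB2M, LRPPRC, SLIRP, POLG and FASTKD2 matched neither core, and that of TFAM had no GABP match. The matches are descriptions of the letters, and nothing measured here bears on binding. The windows lie at chr19:633488-633787 on the minus strand for POLRMT, chr10:58385160-58385459 on the plus strand for TFAM, chr7:141738071-141738370 on the plus strand for SSBP1, and chr16:28846299-28846598 on the minus strand for TUFM. Each is written 5′ to 3′ along the gene, with the motif in capitals.
POLRMT: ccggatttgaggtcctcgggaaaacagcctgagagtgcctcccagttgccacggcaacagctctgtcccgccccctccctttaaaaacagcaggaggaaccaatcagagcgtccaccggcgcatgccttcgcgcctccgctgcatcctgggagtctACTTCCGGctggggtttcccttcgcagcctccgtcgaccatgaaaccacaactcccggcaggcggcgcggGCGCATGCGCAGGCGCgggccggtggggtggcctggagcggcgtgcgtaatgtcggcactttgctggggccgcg
TFAM: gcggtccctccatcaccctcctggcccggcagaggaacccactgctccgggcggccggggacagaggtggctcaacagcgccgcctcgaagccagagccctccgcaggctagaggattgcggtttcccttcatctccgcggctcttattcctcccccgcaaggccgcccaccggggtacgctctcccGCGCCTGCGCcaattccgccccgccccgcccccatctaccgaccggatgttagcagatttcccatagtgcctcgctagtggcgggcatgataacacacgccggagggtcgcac
SSBP1: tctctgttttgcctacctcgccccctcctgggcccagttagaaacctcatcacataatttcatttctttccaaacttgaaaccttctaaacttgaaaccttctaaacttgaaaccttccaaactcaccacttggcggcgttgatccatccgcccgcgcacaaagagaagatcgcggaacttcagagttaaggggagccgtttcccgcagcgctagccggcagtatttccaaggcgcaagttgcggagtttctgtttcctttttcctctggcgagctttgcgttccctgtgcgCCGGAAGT
TUFM: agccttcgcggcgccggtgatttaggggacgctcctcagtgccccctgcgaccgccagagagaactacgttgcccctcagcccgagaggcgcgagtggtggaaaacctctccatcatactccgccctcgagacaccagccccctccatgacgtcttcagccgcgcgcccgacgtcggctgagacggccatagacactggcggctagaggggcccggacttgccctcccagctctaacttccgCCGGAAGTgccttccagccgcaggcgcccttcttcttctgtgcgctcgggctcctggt

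Depth limits every comparison. Total counts were 240683 and 60854 for the controls, 43556 and 29350 for 10 µM, and 2141282 and 1338397 for 100 µM. A count of 0 was placed below 3 counts, which stood for 12.5 and 49.3 CPM (counts scaled to a total of 1000000) for the controls, 68.9 and 102 CPM for 10 µM, and 1.40 and 2.24 CPM for 100 µM. Other features moved with dose as well. From 0 to 10 to 100 µM, the mtDNA genes took 4.35% and 10.4%, then 43.7% and 61.1%, then 3.58% and 3.32% of the counts, and the nuclear RNA MALAT1 took 13.5% and 4.61%, then 0.0390% and 0.0443%, then 2.88% and 2.60%. The summed level of 12 hepatocyte markers was, in the same order, 6041 and 14034 CPM, 436 and 136 CPM, and 11052 and 10803 CPM. Of these markers, 8 and 6, 7 and 2, and 11 and 10 had a count, FGA being at 0 throughout and AFP at 0 in all 4 shallower libraries. The 10 markers of blood, stromal and endothelial cells summed to 524 and 329 CPM, 253 and 443 CPM, and 57.9 and 79.2 CPM, mostly LYZ and COL1A1, with PTPRC, CD68 and HBA1 at 0. The part of these differences in the results below was not tested. In such bulk libraries of isolated mitochondria, fewer contributing cells, less RNA per cell and less RNA kept from outside the organelle cannot be told apart.

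Of the transcription genes, POLRMT and TFAM were well counted at 100 µM and TFB2M was not seen. POLRMT, the mitochondrial RNA polymerase (ENSG00000099821, chr19:617224-633604, minus strand), had 9 and 1 counts with DMSO alone, 17 and 0 with 10 µM, and 279 and 248 with 100 µM GenX. In CPM these were 37.4 and 16.4, 390.3 and 0, and 130.3 and 185. The 100 µM libraries lay above both controls, while the 10 µM pair held both the highest level and a count of 0. TFAM, the protein that packs mtDNA and bends its promoters (ENSG00000108064, chr10:58385022-58399221, plus strand), had 1 and 0, 0 and 0, and 152 and 239 counts, or 71.0 and 179 CPM at 100 µM. Its counts lay at or next to 0 in all 4 libraries outside 100 µM. TFB2M, which opens the promoter (ENSG00000162851, chr1:246540560-246566324, minus strand), had 0 counts in all 6 libraries, and a count of 0 in the pooled 100 µM libraries allows at most 0.862 CPM by the 3-count limit.

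Of the replication genes, SSBP1 was well counted at 100 µM, POLG barely and TWNK not at all. POLG, the catalytic subunit of the mtDNA polymerase (ENSG00000140521, chr15:89305198-89334861, minus strand), had 3 and 0 counts with DMSO alone, 0 and 0 with 10 µM, and 4 and 10 with 100 µM GenX, a level of 1.87 and 7.47 CPM at 100 µM. The helicase gene TWNK (ENSG00000107815, chr10:100987367-100994401, plus strand) had 0 counts in all 6 libraries, with the same limit as TFB2M. SSBP1, the single-strand DNA binding protein (ENSG00000106028, chr7:141738321-141787922, plus strand), had 0 and 0, 8 and 0, and 75 and 68 counts, or 35.03 and 50.8 CPM at 100 µM. Replicate 1 at 10 µM, at 184 CPM, was its highest library by share.

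Of the genes of mitochondrial RNA stability and ribosome assembly, LRPPRC and SLIRP stood high and FASTKD2 near 0. LRPPRC, a pentatricopeptide-repeat protein that binds the messages (ENSG00000138095, chr2:43886508-43996005, minus strand), had 3 and 0 counts with DMSO alone, 11 and 0 with 10 µM, and 557 and 375 with 100 µM GenX, the highest counts of the 10 genes there by mean CPM (270.2 ± 14.2, SD, n = 2). Its level was 253 and 0 CPM with 10 µM, and 260.1 and 280.2 CPM with 100 µM. SLIRP, its small RNA-binding partner (ENSG00000119705, chr14:77708071-77761104, plus strand), had 1 and 0, 0 and 0, and 471 and 369 counts, with 220.0 and 276 CPM at 100 µM. The partners differed in replicate 1 at 10 µM, where LRPPRC had 11 counts and SLIRP 0. At the share it held at 100 µM, SLIRP would have had 10.5 counts there, or 6.13 by its share of nuclear counts. FASTKD2 (ENSG00000118246, chr2:206765357-206792509, plus strand) had 4 and 0 counts with DMSO alone, 0 and 0 with 10 µM, and 0 and 1 with 100 µM GenX. It was the only gene of the 10 whose highest count fell outside the 100 µM libraries.

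TUFM, the mitochondrial elongation factor Tu and the translation gene of the 10 (ENSG00000178952, chr16:28842411-28846408, minus strand), had 23 and 9 counts with DMSO alone, 0 and 0 with 10 µM, and 480 and 269 with 100 µM GenX. In CPM these were 95.6 and 148, 0 and 0, and 224 and 201. It held 32 of the 54 counts on the 10 genes in the controls. Both 100 µM libraries lay above both controls, while a 0 in replicate 2 at 10 µM allows 102 CPM, above the lower control.

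**Figure D1:**
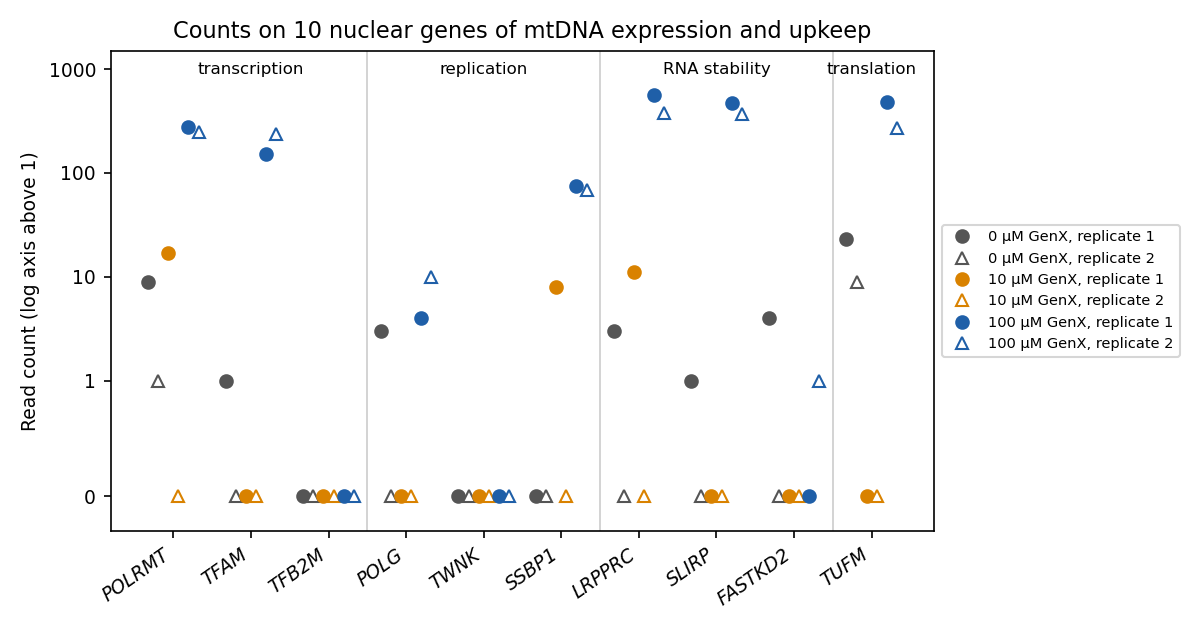
Read count of each gene (log axis above 1, 0 shown at the foot) in the 6 libraries, by role of the protein; circles are replicate 1 and triangles replicate 2, with doses from left to right. TFB2M and TWNK sit at 0 in all 6 libraries, and 6 genes have between 68 and 557 counts in each 100 µM library.

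Per exon length, SLIRP and TUFM were highest at 100 µM. Levels in TPM divide counts by the summed exon length in the deposited tables and scale each library to a total of 1000000, which allows genes to be compared. SLIRP stood at 289 ± 45.8 TPM (SD, n = 2; 257 and 322) and TUFM at 284 ± 22.1 TPM (299 and 268). POLRMT followed at 94.6 ± 23.2 TPM (78.1 and 111), LRPPRC at 85.0 ± 4.40 TPM (81.9 and 88.1) and TFAM at 68.3 ± 41.6 TPM (38.9 and 97.8). SSBP1 stood at 26.4 ± 6.85 TPM (21.6 and 31.3), POLG at 2.40 ± 2.03 TPM (0.960 and 3.84) and FASTKD2 at 0.189 ± 0.267 TPM. Among 11985 nuclear protein-coding genes with a count at 100 µM, SLIRP was at percentile 96.1, TUFM at 95.9, POLRMT at 88.7, LRPPRC at 87.5, TFAM at 84.7, SSBP1 at 68.9 and POLG at 27.5. The ranges of the 2 libraries overlapped between SLIRP and TUFM, between POLRMT and LRPPRC, and between LRPPRC and TFAM, so these neighbours were not separated. They did not overlap between TUFM and POLRMT, whose means were 2.999-fold apart, between TFAM and SSBP1 (2.59-fold) or between SSBP1 and POLG (11.0-fold). The 2 partners of 1 complex were unequal, with LRPPRC at 0.319 and 0.274 of the TPM of SLIRP in the 2 libraries. The order depends on the exon model, since the 9760 bases counted for LRPPRC and the 2631 for SLIRP put LRPPRC first and SLIRP second in CPM.

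**Figure D2:**
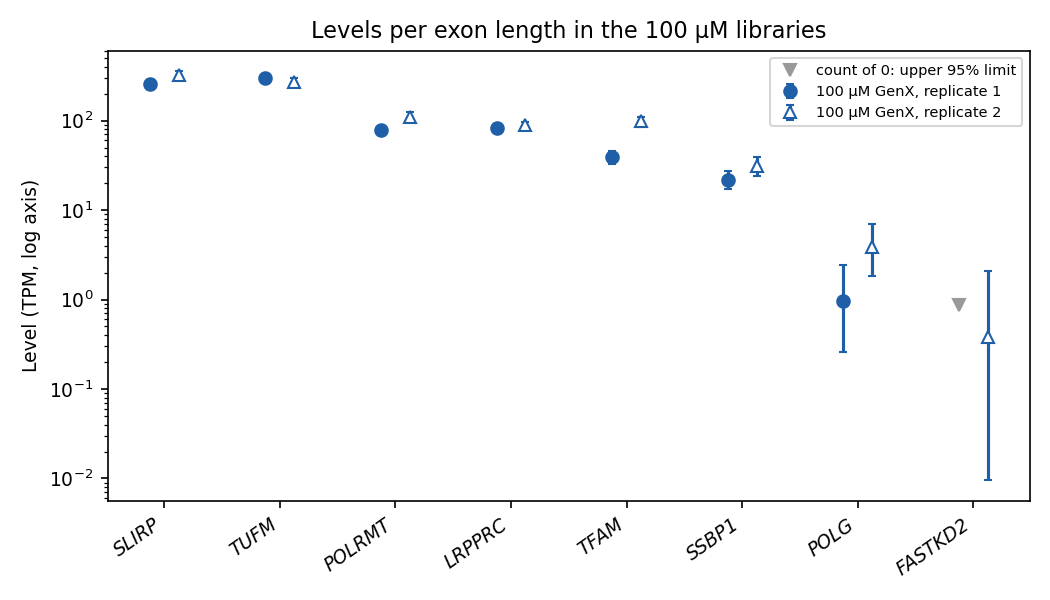
Level of 8 genes in TPM (log axis) in the 2 libraries at 100 µM GenX, circles for replicate 1 and triangles for replicate 2, with exact 95% counting intervals as bars and, for the count of 0 of FASTKD2, its upper limit. SLIRP and TUFM lie between 257 and 322 TPM, and POLG at 0.960 and 3.84 TPM.

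Some counts could hold reads of other genes, as no source used here states the strand or multiple-mapping settings of the counting. Exons of SLIRP share 118 bases with the antisense gene SNW1, which had 69 and 197 counts at 100 µM, and 275 bases with C14orf178, which had 0 and 1. POLG shares 458 bases, 7.66% of its exons, with the antisense gene FANCI, which had 28 and 40 counts, more than POLG itself. TWNK shares 149 bases with the antisense gene MRPL43 at 98 and 69 counts, and had none. Of the processed pseudogenes, TFAMP1 had 35 and 0 counts and POLRMTP1 18 and 12 at 100 µM, against 152 and 239 on TFAM and 279 and 248 on POLRMT, while TUFMP1, SLIRPP1, SLIRPP2 and TFAMP2 were at 0. How reads that match a gene and its copy were counted was not tested.

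The levels of the well-counted genes of the 10 were compared between the 2 libraries at 100 µM. The CPM in replicate 2 over that in replicate 1 was 1.08 for LRPPRC (exact 95% interval 0.942 to 1.23) and 0.897 for TUFM (0.769 to 1.04), both intervals including 1. It was 1.25 for SLIRP (1.09 to 1.44), 1.42 for POLRMT (1.19 to 1.69), 1.45 for SSBP1 (1.03 to 2.04) and 3.9997 for POLG (1.15 to 17.5). TFAM differed most among the genes with at least 50 counts in each library, at 2.52 (2.04 to 3.10), which is more than counting error. Over 4802 protein-coding genes with at least 100 counts in both libraries together, the median ratio was 0.963, the quartiles 0.499 and 1.62, and 57.1% lay from 0.5 to 2. The ratio of TFAM thus lay above the upper quartile, and those of the other 5 well-counted genes lay inside the quartiles. Levels relative to TFAM moved accordingly: POLRMT stood at 2.01 times the TPM of TFAM in replicate 1 and 1.14 times in replicate 2. The well-counted genes had at least 50 counts in each library, which leaves out genes with few counts in 1 library. The 4802 background genes were taken by their sum and include 137 at 0 in 1 library. How closely the 2 sets agree therefore cannot be compared.

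The 10 genes fell into a well-counted and a nearly absent set. At 100 µM, 6 of the 10 had at least 50 counts in each library, and the other 4 had at most 10 in each. Of 19724 nuclear protein-coding genes, 16.9% had at least 50 in each and 55.1% at most 10 in each. Counts that are high in 1 library and 0 in the other occurred elsewhere, in 342 of 5274 genes (6.48%) with at least 50 counts in replicate 1 and in 105 of 4076 (2.58%) with at least 50 in replicate 2. None of the 10 genes was among them.

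**Figure D3:**
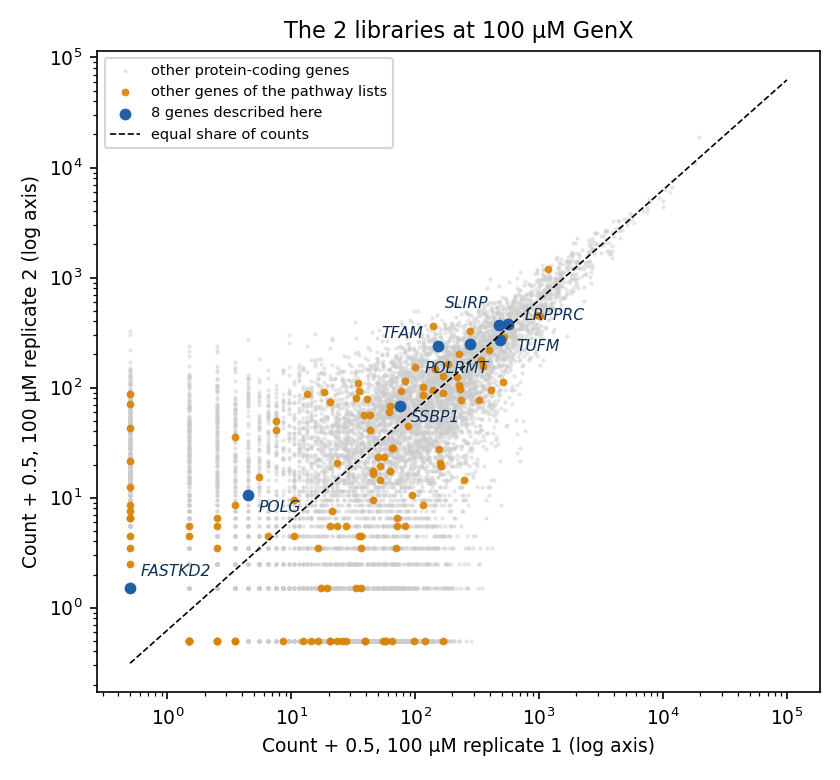
Count plus 0.5 of each nuclear protein-coding gene in replicate 2 against replicate 1 at 100 µM GenX, on log axes, with the genes described here in blue, other genes of the pathway lists in orange and the line of equal share dashed. TFAM lies above the line at 152 and 239 counts, LRPPRC and TUFM next to it, and many other genes lie far from it or at 0 on 1 axis.

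Against the controls, LRPPRC, SLIRP, TFAM, POLRMT and TUFM held a higher share of counts in both 100 µM libraries even where a 0 was set to 3 counts, and none of these differences passed the test across all genes. The 10 genes together had 2018 and 1579 counts with 100 µM GenX, against 44 and 10 with DMSO. These were 0.0942% (exact 95% binomial interval 0.0902 to 0.0984) and 0.118% (0.112 to 0.124) of all counts, against 0.0183% (0.0133 to 0.0245) and 0.0164% (0.00788 to 0.0302). As group means the shares were 0.106% ± 0.0168 at 100 µM and 0.0174% ± 0.00131 in the controls (SD, n = 2 each). At the 100 µM share the controls would have held 249 and 62.9 counts on these genes. The genes higher in both 100 µM libraries with a 0 set to 3 counts were 5 of the 8 with any count, and 13.4% of 13722 nuclear protein-coding genes with a count met that criterion (12.7% and the same 5 genes over counts on nuclear genes). With a 0 read as a level of 0, which the depth does not show, SSBP1 was added (6 of 8, and 31.7% of genes). None (0) had both below, as 5.41% of genes did. With a 0 set to 3 counts, a gene at 0 in control replicate 2 could lie higher only above 49.3 CPM in both 100 µM libraries. These shares therefore depend on how well a gene was counted at 100 µM. There 6 of the 10 genes, and 16.9% of nuclear protein-coding genes, had at least 50 counts in each library. Genes of like count were not compared. With the counts pooled by dose, TUFM, which the controls could measure best, was 2.03-fold higher at 100 µM (exact 95% interval 1.42 to 2.99) and POLRMT 4.57-fold (2.46 to 9.58). LRPPRC, with 3 control counts, was 26.9-fold higher (9.18 to 131), TFAM, with 1, 33.9-fold (6.05 to 1342), and SLIRP, with 1, 72.8-fold (13.03 to 2878). SSBP1, with 0 control counts, was 4.13-fold higher taking 3 counts over the pooled controls, with an exact 95% lower limit of 3.32-fold. FASTKD2 ran the other way, at 1 count over the 100 µM libraries and 4 over the controls, a ratio of 0.0217 (0.000440 to 0.219) that rests on replicate 1 of the controls, the other control being at 0. POLG, at 14 counts over the 100 µM libraries and 3 over the controls, had a ratio of 0.404 (0.113 to 2.19). Intervals and limits treat reads as independent and leave out the spread between the 2 libraries of a dose. By chi-square per degree of freedom that spread was 39.4 in the controls and 35.2 at 100 µM, more than sampling noise. Reads without molecular identifiers are not independent molecules, so the intervals may be too narrow for counting error as well.

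In the edgeR quasi-likelihood fit across all genes, 5 of the 10 were tested, LRPPRC, SLIRP, TFAM, POLRMT and TUFM, and 0 of them passed a Benjamini-Hochberg adjusted p of 0.05 at 100 µM against control, as did 0 of all 3180 genes (0%). The filter kept genes above 66.3 CPM in at least 2 libraries, and LRPPRC, SLIRP, TFAM and POLRMT met it only with the 100 µM pair, so their place above the controls is in part set by the filter. The fitted log2 changes at 100 µM against control were 5.54 ± 1.82 (SE) for SLIRP (edgeR adjusted p = 0.204), 4.55 ± 1.75 for TFAM (0.232) and 4.26 ± 2.09 for LRPPRC (0.309). POLRMT had 1.75 ± 1.82 (edgeR adjusted p = 0.622) and TUFM 0.24 ± 1.42 (0.942), beside a median of 0.35 over all genes. Leaving out a library gave 5.24 to 10.48 for SLIRP, 4.25 to 9.48 for TFAM, 3.80 to 10.61 for LRPPRC, 1.45 to 3.49 for POLRMT and 0.53 to 0.97 for TUFM, the first 4 highest without control replicate 1. At an unadjusted p under 0.05 there were 573 of the 3180 genes, 381 with a higher and 192 with a lower fitted level at 100 µM. Of the 5 genes tested here, 2 were among them, SLIRP and TFAM. Of the 3180 genes the DESeq2 Wald test gave 802 no adjusted p and passed 244. It passed 0 of the 4 described here that it gave an adjusted p, TFAM having none. The TUFM value took the opposite sign, -0.22, with DESeq2 size factors, which move the median of all genes to -0.055.

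At 10 µM against control the genes split: TUFM had 0 counts in both 10 µM libraries, and POLRMT, LRPPRC and SSBP1 had counts in 1 of them. Replicate 1 at 10 µM had 36 counts on the 10 genes, 0.0827% (0.0579 to 0.114) of its counts, from POLRMT, LRPPRC and SSBP1 alone, and replicate 2 had 0, which allows up to 0.0102% by the 3-count limit. The controls had 0.0183% and 0.0164%, so the 10 µM pair, at 0.0413% ± 0.0584 (SD, n = 2), lay on both sides of them. Over counts on nuclear genes, which leaves out the mtDNA share, the 10 µM mean was 0.0735% ± 0.104 and replicate 1 was at 0.147%, while the 0 of replicate 2 allows up to 0.0263%, above the 0.0191% and 0.0183% of the controls. No gene of the 8 with a count lay higher in both 10 µM libraries than in both controls (3.72% of 13722 genes did), and 1, TUFM, lay lower in both (15.3%) with a 0 read as a level of 0. With a 0 set to 3 counts, 0 of the 8 lay lower in both, where 3.4% of genes did over all counts and 1.81% over nuclear counts. TUFM had 0 counts at 10 µM and 32 in the controls, 2.58-fold lower with that 0 set to 3 counts and 1.35-fold over nuclear counts. By the exact 95% interval, its share at 10 µM was at most 0.505 of that in the controls, or 0.969 over nuclear counts. At the share it held at 100 µM, it would have had 9.38 and 6.32 counts in the 10 µM libraries, or 5.47 and 2.54 by nuclear counts. POLRMT had 17 counts at 10 µM and 10 in the controls, a 7.03-fold higher share (3.04 to 17.2). LRPPRC had 11 and 3 counts, 15.2-fold (4.01 to 84.7). SSBP1 had 8 and 0 counts, 11.0-fold with the 0 set to 3 counts, with an exact 95% lower limit of 7.06-fold. All 3 values rest on replicate 1, and in replicate 2 each gene was at 0.

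**Figure D4:**
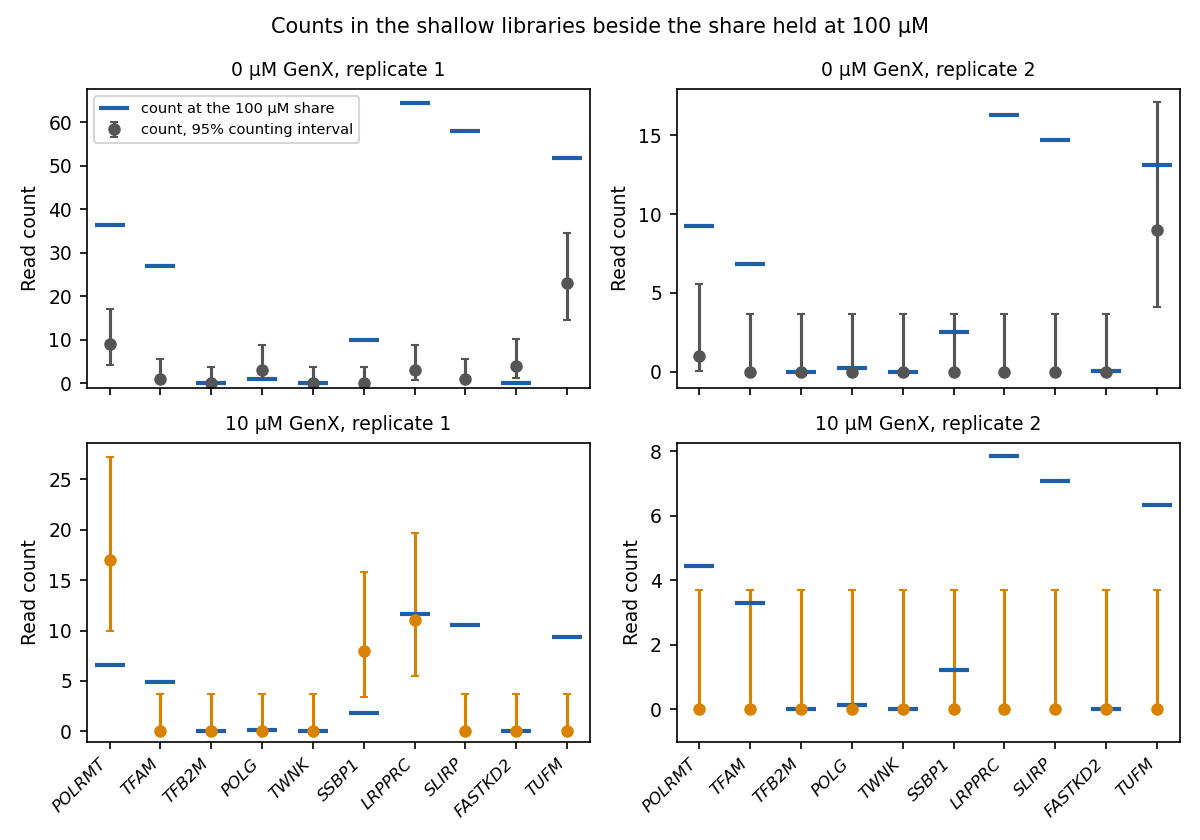
Read count of each gene in the 2 controls (grey) and the 2 libraries at 10 µM GenX (orange), with exact 95% counting intervals as bars, beside the count that its pooled share of all counts at 100 µM would give in that library (blue dashes); each panel has its own count axis. In replicate 1 at 10 µM POLRMT has 17 counts beside 6.60 at the 100 µM share, and in replicate 2 every gene is at 0.

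By edgeR's quasi-likelihood test, 0 of the 5 tested genes passed at 10 µM against control, where 19 of 3180 (0.597%) did. The fitted log2 changes were 3.66 ± 2.10 for LRPPRC (edgeR adjusted p = 0.245), 2.54 ± 1.90 for POLRMT (0.351) and -9.80 ± 3.84 for TUFM (0.159), beside a median of -3.18 over all genes. The size of the TUFM value depends on the prior count, since its 10 µM libraries are at 0. At an unadjusted p under 0.05 there were 895 of the 3180 genes, and 1 of the 5 tested here, TUFM. Of the 3180 genes the DESeq2 Wald test gave 1418 no adjusted p and passed 554. Of the 3 described here that it gave an adjusted p, 1 passed, TUFM, at a log2 change of -4.24 (DESeq2 adjusted p = 0.0413). Over the alternatives tried, the adjusted p of TUFM ran from 0.0413 to 0.595. Leaving out replicate 1 at 10 µM turned the fitted values of LRPPRC and POLRMT to -6.12 and -7.85.

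At 100 µM against 10 µM, SLIRP, TFAM and TUFM, with 0 counts at 10 µM, were at least 5.87-fold, 2.73-fold and 5.23-fold higher by the 3-count limit over the pooled 10 µM libraries. Over nuclear counts these limits were 2.99-fold, 1.39-fold and 2.67-fold. POLRMT did not share this: its pooled share at 100 µM was 0.650 of that at 10 µM (0.402 to 1.12). For SSBP1 the ratio was 0.375 (0.185 to 0.884) and for LRPPRC 1.78 (0.988 to 3.57). With a 0 set to 3 counts, LRPPRC, SLIRP and TUFM had both 100 µM libraries above both at 10 µM, 3 of the 8 genes with a count, where 10.7% of 13722 genes did, and over counts on nuclear genes 0 of the 8 did, where 4.99% did. With a 0 read as a level of 0 there were 5, with TFAM and POLG added (45.2% of genes), and 0 had both below (2.66%). With a 0 set to 3 counts, a gene at 0 in replicate 2 at 10 µM had to exceed 102 CPM in both 100 µM libraries. Those shares too depend on how well a gene was counted at 100 µM. Over nuclear counts the pooled ratios were 0.331 for POLRMT (0.205 to 0.573), 0.191 for SSBP1 (0.0944 to 0.451) and 0.906 for LRPPRC (0.504 to 1.82). In edgeR's quasi-likelihood test 0 of the 5 tested genes passed, where 91 of 3180 (2.86%) did. LRPPRC, SLIRP, TFAM and POLRMT met the filter only with the 100 µM pair, so a place above the 10 µM libraries is in part set by the filter. SLIRP and TFAM were over its cutoff in neither 10 µM library. SLIRP, TFAM and TUFM each had an edgeR adjusted p of 0.130, LRPPRC 0.802 and POLRMT 0.742. At an unadjusted p under 0.05 there were 1150 of the 3180 genes, and 3 of the 5 tested here, SLIRP, TFAM and TUFM. Of the 3180 genes the DESeq2 Wald test gave 1048 no adjusted p and passed 383. It passed 0 of the 3 described here that it gave an adjusted p, SLIRP and TFAM having none. Without control replicate 1 or control replicate 2, both of which enter the shared estimate of the spread, SLIRP passed at adjusted p of 0.0314 and 0.0242 and TUFM at 0.0318 and 0.0240 in edgeR. Those are 2 of 6 tested genes in each fit, where 36.0% and 18.5% of all genes passed.

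**Figure D5:**
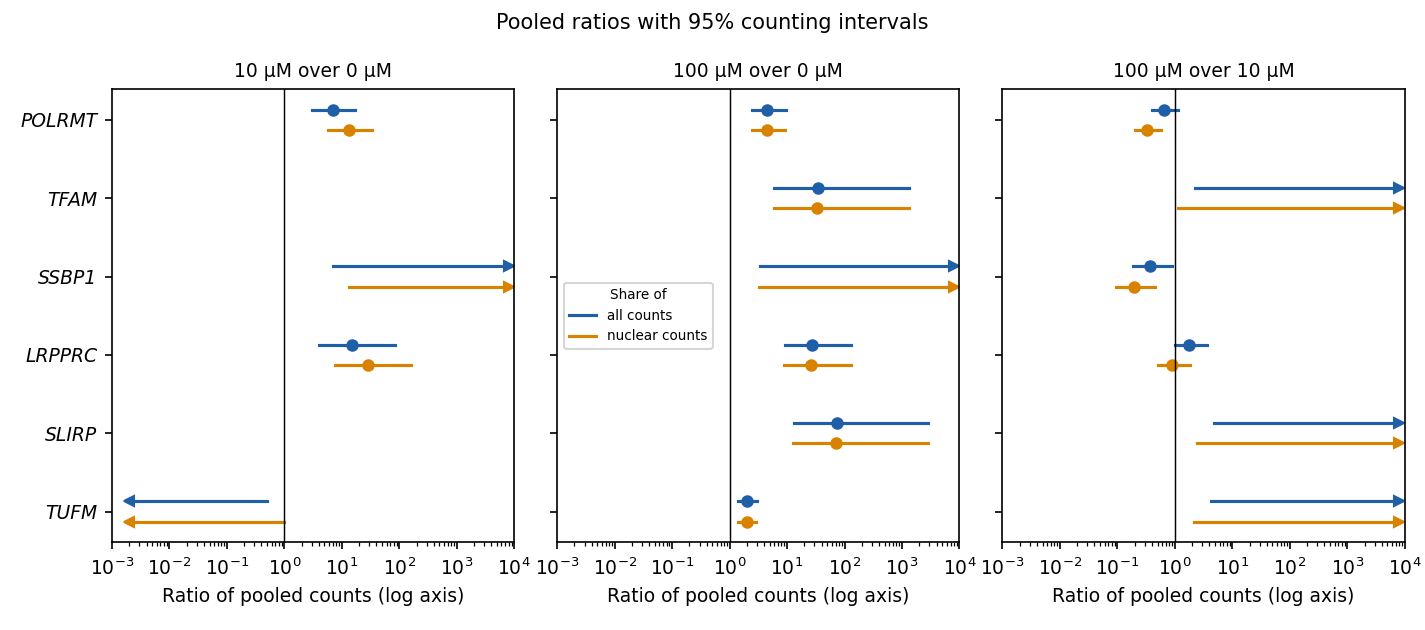
Ratio of the pooled share of counts (log axis) for 6 genes in each comparison, as a share of all counts (blue) or of counts on nuclear genes (orange), with exact 95% counting intervals; arrows mark intervals that run on because a dose has 0 counts, and genes with at most 3 counts in each dose are left blank. TUFM lies at 2.03 at 100 µM over 0 µM, and POLRMT at 0.650 of all counts at 100 µM over 10 µM.

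The wider pathway was described with 9 lists of 154 other genes. At 100 µM, 30 of the 154 (19.5%) had at least 50 counts in each library, beside 6 of the 10 genes above, and 24 were at 0 in both. In the edgeR test 0 genes of any of these lists passed in any of the 3 comparisons, with 1 to 4 tested per list. The median log2 change of the tested genes at 100 µM against control ran from -2.91 in the list of RNA modification to 2.27 in that of the regulators, beside 0.35 over all genes.

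In the list of mtDNA transcription genes other than the 10, TFB1M, a methyltransferase of the mitochondrial ribosomal RNA, led at 99.8 ± 34.3 TPM (75.5 and 124) at 100 µM, with 144 and 148 counts. It is the paralogue of TFB2M, which had 0. MRPL12, a ribosomal protein, followed at 29.6 ± 29.2 TPM. In the replication list, POLG2, the accessory subunit of the mtDNA polymerase, stood at 170 ± 74.8 TPM (117 and 223), with 276 and 329 counts beside 4 and 10 for the catalytic subunit POLG. MGME1, a mitochondrial exonuclease, stood at 94.2 ± 11.0 TPM. The accessory subunit was thus well above the catalytic one in both libraries, on the scale per exon length.

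Among genes of RNA processing and decay, the oligoribonuclease REXO2 stood at 106 ± 26.8 TPM and FASTKD5, a relative of FASTKD2, at 92.4 ± 12.7 TPM, with 167 and 127 counts beside 0 and 1 for FASTKD2. The modification enzymes MRM2 (40.8 ± 44.9 TPM) and TRMT1 (32.4 ± 38.0 TPM) led their list with an SD above the mean. In nucleotide supply, DGUOK, the deoxyguanosine kinase, stood at 176 ± 76.7 TPM and the pyrimidine nucleotide carrier SLC25A36 at 132 ± 25.7 TPM. LONP1, the matrix protease that degrades TFAM, had the highest level of the 9 lists at 433 ± 144 TPM (331 and 535), with 1172 and 1185 counts, and PHB2, of the prohibitin ring, stood at 82.8 ± 4.96 TPM. The initiation factor MTIF2 stood at 147 ± 99.4 TPM and the insertase OXA1L at 96.5 ± 23.3 TPM. The synthetase genes GARS1 and KARS1, whose proteins serve the cytosol as well, stood at 301 ± 74.5 and 109 ± 14.4 TPM.

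Of the regulators, YY1 at 94.99 ± 0.428 TPM and MYC at 91.2 ± 25.2 TPM led at 100 µM. NRF1 itself had 43 and 41 counts there. GABPA, the DNA-binding subunit of GABP, had 39 and 0 counts, and the coactivators PPRC1 and PPARGC1A had 97 and 0, and 14 and 0. The levels of the last 3 therefore rest on replicate 1.

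The genes whose log2 CPM ran most like each tested gene over the 6 libraries were sought among 3049 protein-coding genes. They mainly show how many genes were counted in the same libraries. For SLIRP these were CDKN2D and TMEM39B, and 239 genes had a Pearson r of at least 0.95. For TFAM they were DCP1A and NCOA4, with 210 such genes, and for TUFM TMEM184B and ASPH, with 308. LRPPRC, with MED1 (r = 0.996) and IPO5 (r = 0.994), and POLRMT, with PPP1R13L (r = 0.995) and RAB21 (r = 0.987), had fewer, 27 and 19. The 6 points share depth by dose, and the 4 shallow libraries hold few counts or 0 on these genes, so these values describe the libraries.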

How the data were processed

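The values were the authors' deposited raw counts, whole numbers for every gene, in 1 table per library with the layout of featureCounts. Per the submitters' processing notes the tools were FastQC, STAR, featureCounts and DESeq2 on GRCh38, and versions, annotation release, strand setting and the handling of multiple mapping are not given in the sources used here. The deposited Length column, another number per gene, equalled the merged exon length in all 57500 genes. Libraries were stranded per the labels' protocols, and groups and replicate numbers came from the sample titles.

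Identifiers were matched to symbols for 56410 genes by a gene name table and to gene types for 56898 in GENCODE v29, in which all 10 genes had the same start and end. No line was without a gene (0). CPM used all counts of a library, which hold 35 mtDNA genes, and TPM was computed from Length. Counts carry exact Poisson, shares exact Clopper-Pearson and ratios of pooled counts exact conditional binomial intervals at 95%, and a 0 was placed below 3 counts. Promoter windows came from RefSeq GRCh38.p14.

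All 6 libraries entered 1 fit in edgeR 4.0.16 (R 4.3.3) with limma 3.58.1: filterByExpr (3180 genes), TMM, robust quasi-likelihood, two-sided tests of 3 comparisons, with Benjamini-Hochberg adjustment across every tested gene and a threshold of 0.05. A standard error is the log2 change over the square root of F. The fit was run on simulated counts with large planted changes and less spread than these data, whose common coefficient of variation was 0.939. That run therefore does not measure power or false calls here. Replicates compared by chi-square over genes with 10 or more counts gave 39.4 (controls), 12.9 (10 µM) and 35.2 (100 µM) per degree of freedom, more than sampling noise, and were kept apart. Alternatives were TMM without mtDNA genes, size factors of DESeq2 1.42.0, plain library sizes, the DESeq2 Wald test on the same genes, no filter, a filter at a mean of 5 CPM, a fit of the 4 libraries of a comparison, a replicate block, and leaving out each library. For groups that do not overlap, the nuclear denominator and a 0 set to 3 counts were added after seeing the data. Python 3.11.15, pandas 2.3.3, numpy 2.4.6, scipy 1.17.1 and matplotlib 3.10.9 were used.

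The 10 genes and the lists were chosen with earlier results of these data known. All 10 are named. Of each list the 2 genes with the highest mean TPM at 100 µM are named, with up to 3 that passed a test (there were 0), and for each tested gene the 2 protein-coding genes with the highest Pearson r of log2 CPM (prior count 2). The regulators NRF1, GABPA, PPRC1 and PPARGC1A, and the counts of neighbours and pseudogenes, are given after their values were seen.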

Additional observations from a re-analysis of the deposited data

How the results depend on the processing

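Depth is a limit: 4 of 6 libraries hold few counts on these genes, and a gene below 3 counts at 10 µM may lie anywhere under 68.9 or 102 CPM. Over 13 pairs of a gene and a comparison, 159 of 177 alternative values kept direction and side of the threshold, 13 changed sign and 5 passed where the edgeR result did not. At 100 µM against 10 µM, LRPPRC was -0.49 with DESeq2 size factors and -0.49 in the Wald test. POLRMT there was 0.53 without a filter, 0.93 at a mean of 5 CPM, 0.41 with the replicate block, and -0.88 to 9.89 leaving out a library. At 10 µM against control, leaving out a library gave -6.12 to 9.22 for LRPPRC and -7.85 to 3.48 for POLRMT. At 100 µM against control TUFM was -0.22 with size factors and -0.22 in the Wald test. The cause was not tested.

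Genes called at 10 µM against control numbered 19, and 7 with library sizes alone, 554 in the Wald test, 7 without a filter, 95 at 5 CPM, 75 with the replicate block, 206 with only the 4 libraries compared (458 genes, none of the 10) and 4 to 861 leaving out a library. At 100 µM against control they numbered 0, and 4 with size factors, 244 in the Wald test, 22 with the block and 0 to 204. At 100 against 10 µM they numbered 91, and 383 in the Wald test, 3 without a filter, 291 at 5 CPM, 258 with the 4 libraries and 16 to 1272, and 136 with the block. Of the 10 genes 1, TUFM, was called in the Wald test at 10 µM against control and 0 to 2 at 100 against 10 µM leaving out a library, and none with the block. Higher and lower calls at 10 µM against control numbered 7 and 12, 8 and 7 with size factors, and 0 and 7 with library sizes alone. At 100 against 10 µM they numbered 24 and 67, 6 and 73, and 42 and 86. The median log2 change of all genes at 100 µM against control was 0.35, and -0.055 and 1.02. The deviations of same-numbered libraries had correlations of 0.000331, 0.00315 and -0.0222. With few counts in the shallow libraries, these values cannot show whether same-numbered libraries were paired. The block took its numbers from the sample titles. Over nuclear counts the share of the 10 genes was 0.0735% at 10 µM (0.0413% of all counts) and 0.0187% in the controls (0.0174%). With a 0 set to 3 counts, the genes with both 100 µM libraries above both at 10 µM numbered 3, and 0 over nuclear counts, and those lower at 10 µM than in the controls 0 by either.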
